A study of Mus musculus with 12 samples.

Results

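Kupffer cells are the resident macrophages of the liver. They line the sinusoids, the capillaries of the liver, where they take up bacteria, dying red blood cells and free hemoglobin from portal blood, and they are recognised by surface receptors that recruited monocytes carry little of. Their survival depends on signals through the CSF1 receptor. Glucocorticoids such as dexamethasone (Dex) act through the glucocorticoid receptor (GR), a transcription factor present in hepatocytes and macrophages alike.

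The 10 marker genes described here were Clec4f, Vsig4, Marco, Cd5l, Adgre1, Timd4, Cd163, Csf1r, Cd68 and Slc11a1, found by their mouse symbols among the 54838 genes of the count table, of which 26191 had at least 1 count. The livers of 12 female C57BL/6J mice, 8 to 14 weeks old, were sequenced in 4 groups of 3. Water-PBS mice drank normal water and were injected with PBS (the controls), and zinc-PBS mice had drunk 25 mM ZnSO4 for 7 days before the PBS. Water-Dex and zinc-Dex mice drank the same waters and received 200 µg Dex intraperitoneally, and every liver was sampled 2 h after its injection. The study addressed how zinc and Dex act alone and together on gene expression. Whole liver was sequenced, so fewer Kupffer cells and less RNA per Kupffer cell cannot be told apart.

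All 10 genes were detected in every library, with 88 to 2206 raw counts out of library totals of 9091152 to 12303527, and together made up no more than 0.0708% of a library's counts. Levels below are read counts normalized by size factors, which put the libraries on one scale. Expressed per kilobase of exon, so that genes can be compared, the mean level over the 12 libraries was 753 ± 122 (SD) for Cd5l, 718 ± 67.2 for Clec4f and 420 ± 26.5 for Vsig4. It was 170 ± 15.3 for Csf1r, 124 ± 12.9 for Adgre1, 111 ± 35.8 for Cd163, 94.2 ± 15.1 for Cd68, 91.0 ± 20.2 for Marco, 66.8 ± 12.1 for Timd4 and 35.3 ± 4.91 for Slc11a1. Of the neighbours in this order, Cd5l and Clec4f differed by less than the sum of their SDs, and so did each step from Adgre1 to Timd4. Csf1r shares exon sequence with Hmgxb3 on the opposite strand, and since the strand setting of the counting is not stated, the level of Csf1r is uncertain.

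The windows before the transcription start are shown for Cd163, the marker that changed with Dex, for Clec4f, the other marker with a GR motif, and for Vsig4, which holds the macrophage motif at 2 places. Windows were searched for 8 of the 10 genes. Adgre1 and Csf1r were left out, and their windows were not searched. Each window holds the 250 bases before the start on build GRCm38.p6, read 5′ to 3′ along the gene. Capitals mark 2 motifs, each searched also as its reverse complement, that do not overlap in these windows. The first, AGAACA, is one arm of the palindrome bound by GR. The second, GAGGAA, is the core bound by PU.1, the main transcription factor of macrophages. The Cd163 window is chr6:124304401-124304650 on the plus strand, that of Clec4f chr6:83656117-83656366 on the minus strand and that of Vsig4 chrX:96293439-96293688 on the minus strand.
Cd163: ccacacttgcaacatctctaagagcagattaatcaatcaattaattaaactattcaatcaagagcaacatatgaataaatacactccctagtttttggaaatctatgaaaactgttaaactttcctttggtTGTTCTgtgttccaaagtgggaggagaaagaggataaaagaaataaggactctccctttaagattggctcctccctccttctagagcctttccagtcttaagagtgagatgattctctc
Clec4f: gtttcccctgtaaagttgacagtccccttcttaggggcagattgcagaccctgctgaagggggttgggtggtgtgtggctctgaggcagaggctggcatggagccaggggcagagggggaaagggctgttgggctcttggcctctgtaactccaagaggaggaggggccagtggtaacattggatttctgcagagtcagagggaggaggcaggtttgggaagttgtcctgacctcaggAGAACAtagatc
Vsig4: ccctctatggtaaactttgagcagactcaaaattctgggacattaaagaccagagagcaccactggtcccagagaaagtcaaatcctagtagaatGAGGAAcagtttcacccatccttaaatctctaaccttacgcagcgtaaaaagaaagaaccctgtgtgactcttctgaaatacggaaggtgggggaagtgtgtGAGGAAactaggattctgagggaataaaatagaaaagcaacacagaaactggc
The GR motif lay 119 bases before the start of Cd163 and 12 bases before that of Clec4f, and was found in 2 of the 8 windows, against 16.1% of 32851 promoter windows of the same length. The PU.1 core lay 155 and 53 bases before the start of Vsig4 and was found in 5 of the 8 windows (Slc11a1, Marco, Cd5l, Cd68 and Vsig4), against 23.3% of all windows. These matches describe the letters only.

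Cd163, the scavenger receptor for hemoglobin bound to haptoglobin, rose with Dex under both waters, and the other 9 markers did not pass the test in either comparison. Its normalized count was 449, 459 and 324 in the water-PBS mice, against 879, 658 and 759 after Dex. On zinc water it was 456, 434 and 457 with PBS and 766, 898 and 706 with Dex. Every Dex-injected mouse lay above every PBS-injected mouse.

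The increase was 1.86-fold in water mice (log2 0.90, SE 0.15, DESeq2 adjusted p = 3.77e-08) and 1.76-fold in zinc mice (log2 0.81, SE 0.15, DESeq2 adjusted p = 7.01e-07). These comparisons share no library. Of all genes tested, 11.7% rose with Dex in water mice and 9.91% fell, and 11% rose and 9.08% fell in zinc mice. With the study's further threshold of a log2 fold change above 0.8, 4.89% and 5% rose, and Cd163 passed in both, in zinc mice barely. The alternatives of the closing section gave Cd163 values down to log2 0.70 in water and 0.59 in zinc mice, below that threshold. In an exact two-sided permutation test over the 12 mice, with treatment exchanged within each water, Cd163 gave p = 0.005, the smallest that the 400 relabellings allow, while the other 9 markers gave exact p of 0.05 to 1. A test of 3 mice against 3 alone cannot go below 0.1.

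The rise of Cd163 was as large relative to the other markers. Its log2 level minus the mean log2 level of the other 9 was -0.02 ± 0.06 (SD, n = 3) in water-PBS, 0.18 ± 0.07 in zinc-PBS, 0.94 ± 0.09 in water-Dex mice, reaching 1.04 ± 0.16 in the zinc-Dex group. That is a ratio 1.94-fold higher with Dex in water mice and 1.81-fold higher in zinc mice.

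**Figure D1:**
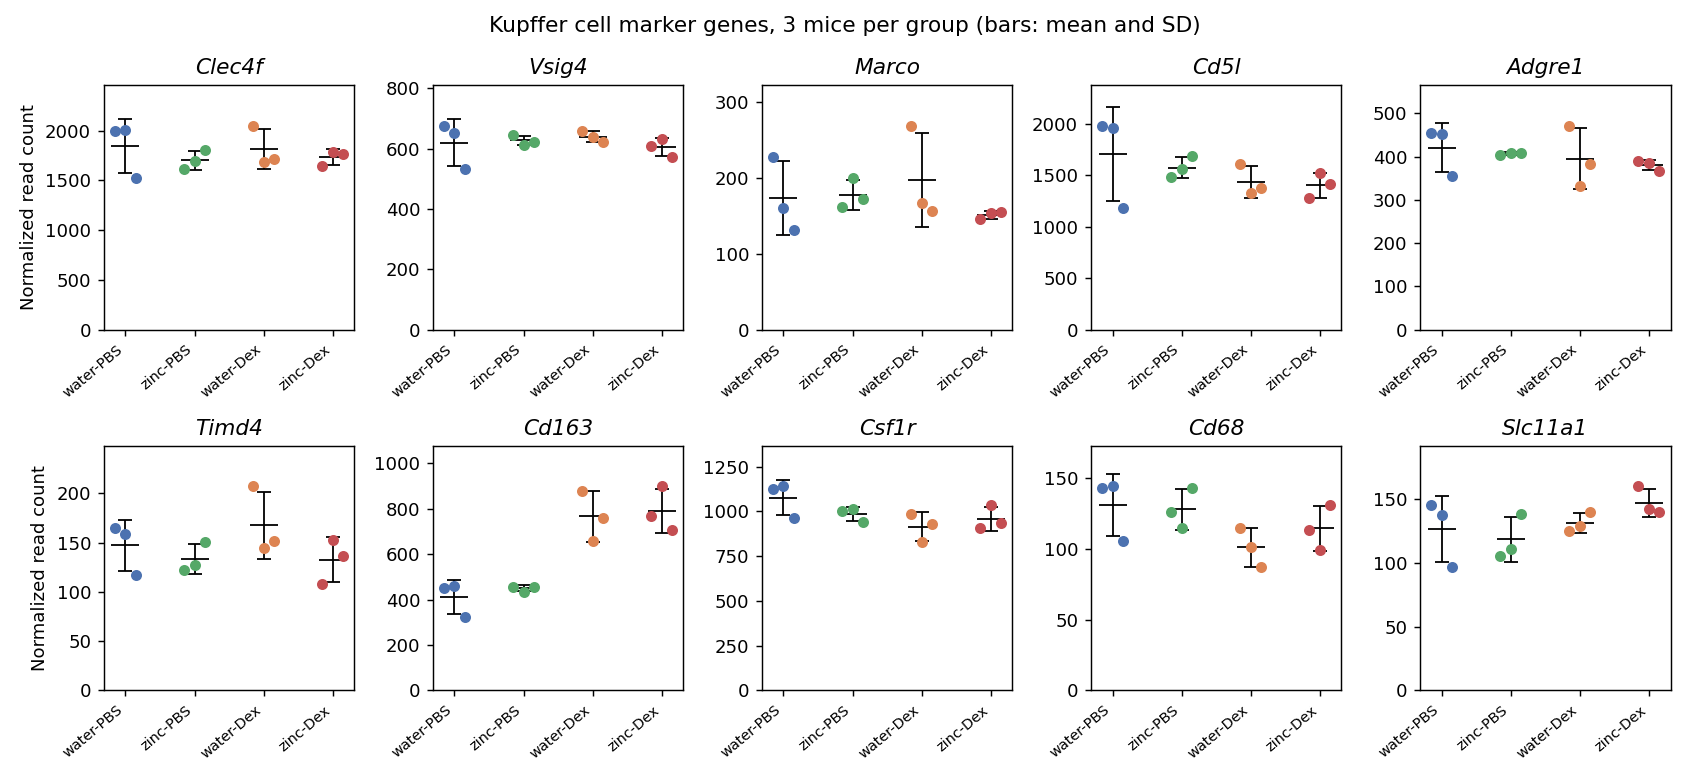
Normalized read counts (vertical axis, from 0) of the 10 Kupffer cell marker genes in the 4 groups. Points are single mice in replicate order and bars are the mean and SD of 3. Cd163 is higher in all 6 Dex-injected mice (658 to 898) than in all 6 PBS-injected mice (324 to 459), while for most other markers the groups overlap.

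**Figure D2:**
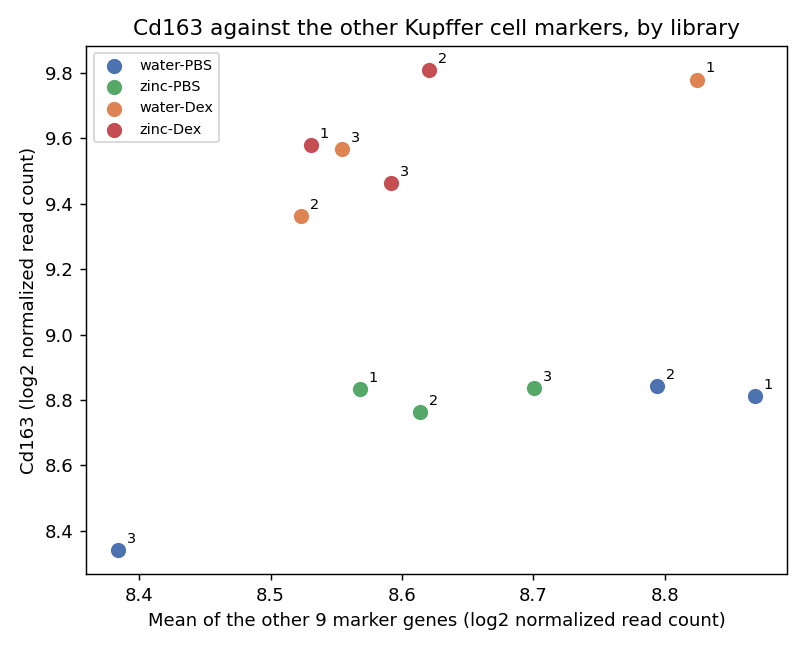
Log2 normalized count of Cd163 (vertical axis) against the mean log2 normalized count of the other 9 markers (horizontal axis), 1 point per library, coloured by group and numbered by replicate. The Dex libraries lie above the PBS libraries over the same range of the other markers.

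The markers most particular to Kupffer cells kept their levels within the spread of the mice. Clec4f, a lectin found on Kupffer cells of rodents, had 1996, 2008 and 1528 normalized counts in water-PBS, 1611, 1694 and 1804 in zinc-PBS, 2050, 1686 and 1714 in water-Dex mice, with 1644, 1789 and 1768 in the zinc-Dex group. The groups overlapped in every comparison, and its Dex effect was 0.98-fold in water mice (95% interval 0.839 to 1.16) and 1.02-fold in zinc mice (0.868 to 1.19).

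Vsig4, the complement receptor that captures bacteria in the sinusoids, had 676, 653 and 532 normalized counts in water-PBS, 645, 614 and 624 in zinc-PBS, 659, 639 and 622 in water-Dex mice, with 610, 631 and 573 in the zinc-Dex group. Its Dex effect was 1.03-fold (0.898 to 1.18) in water and 0.963-fold (0.839 to 1.10) in zinc mice, the narrowest intervals among the 10 genes beside those of Csf1r. Timd4, a phosphatidylserine receptor of long-lived resident macrophages, ranged from 109 to 207 normalized counts, with a Dex effect of 1.14-fold (0.874 to 1.48) in water and 0.997-fold (0.763 to 1.30) in zinc mice.

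Among the scavenger genes, Cd5l, a secreted protein that controls macrophage survival and lipid handling, had 1984, 1958 and 1183 normalized counts in water-PBS and 1616, 1327 and 1376 in water-Dex mice. Water-PBS replicate 3, the low control, kept the groups overlapping, and the difference was log2 -0.25 (SE 0.17, DESeq2 adjusted p = 0.326). Without that control mouse, Cd5l was lower with Dex at log2 -0.45 (DESeq2 adjusted p = 8.18e-04) and Csf1r at log2 -0.31 (DESeq2 adjusted p = 0.0233). In zinc mice Cd5l had 1486, 1559 and 1686 against 1280, 1520 and 1418 normalized counts, a log2 difference of -0.17 (SE 0.17, DESeq2 adjusted p = 0.574), in groups that overlap.

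Marco, a receptor for bacterial surfaces, reached 269 normalized counts in 1 water-Dex mouse and 132 to 228 in the other 11. Its interval was the widest in each Dex comparison (0.840- to 1.54-fold in water and 0.628- to 1.16-fold in zinc mice).

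Of the pan-macrophage markers, Csf1r, the receptor that macrophages need to survive, had 1126, 1138 and 964 normalized counts in water-PBS and 984, 827 and 931 in water-Dex mice. The difference was log2 -0.24 (SE 0.10, DESeq2 adjusted p = 0.0757), and in zinc mice it was log2 -0.04 (SE 0.10, DESeq2 adjusted p = 0.855). Hmgxb3, its opposite-strand neighbour, was higher with Dex in water mice (log2 0.47, SE 0.16, DESeq2 adjusted p = 0.0211), the opposite direction to Csf1r. Cd68, a lysosomal glycoprotein, had 143, 144 and 105 normalized counts in water-PBS and 115, 101 and 87.1 in water-Dex mice, a difference of log2 -0.38 (SE 0.19, DESeq2 adjusted p = 0.147). Cd163, Csf1r and Cd68 were the 3 markers with an unadjusted p under 0.05 in water mice, beside 30.9% of all genes tested, and neither Csf1r nor Cd68 held after adjustment. In zinc mice the Cd68 difference was log2 -0.16 (SE 0.18, DESeq2 adjusted p = 0.648).

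Adgre1, which encodes the F4/80 antigen, and Slc11a1, a metal ion transporter of the phagosome, completed the set. Adgre1 was 0.940-fold (0.781 to 1.13) with Dex in water and 0.935-fold (0.777 to 1.12) in zinc mice. Slc11a1 was 1.03-fold (0.812 to 1.32) in water mice. In zinc mice it had 106, 111 and 139 normalized counts with PBS and 160, 142 and 139 with Dex, groups that just fail to overlap, at 1.24-fold (0.978 to 1.58, DESeq2 adjusted p = 0.231). Of the 10 markers, Cd163 alone had groups that did not overlap in water mice, beside 39% of all genes tested. In zinc mice 4 had (Cd163 and Slc11a1 above, Marco and Adgre1 below), beside 38.1% of all genes tested, and Cd163 alone of them was called.

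Across the 9 markers other than Cd163, Dex effects ran from 0.770- to 1.14-fold in water mice and from 0.852- to 1.24-fold in zinc mice, with 95% intervals reaching from 0.597 to 1.58. The median log2 change of the 10 markers was 0.01 in water and -0.05 in zinc mice, beside -0.01 and -0.01 over all genes tested. Normalized by library totals instead, an alternative chosen after seeing the data, the median over genes averaging 50 normalized counts or more shifted by -0.20 and -0.23, Cd163 stayed higher, and 3 markers in water mice (Cd5l, Csf1r, Cd68) and 4 in zinc mice (Vsig4, Cd5l, Adgre1, Csf1r) were called lower, beside 23.1% and 25.1% of all genes tested under that scaling. Of all called genes, 54.0% and 54.8% rose in the main analysis and 23.5% and 20.4% under that scaling. Set against those shifted medians of -0.17 and -0.20, the marker medians were -0.18 and -0.27.

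**Figure D3:**
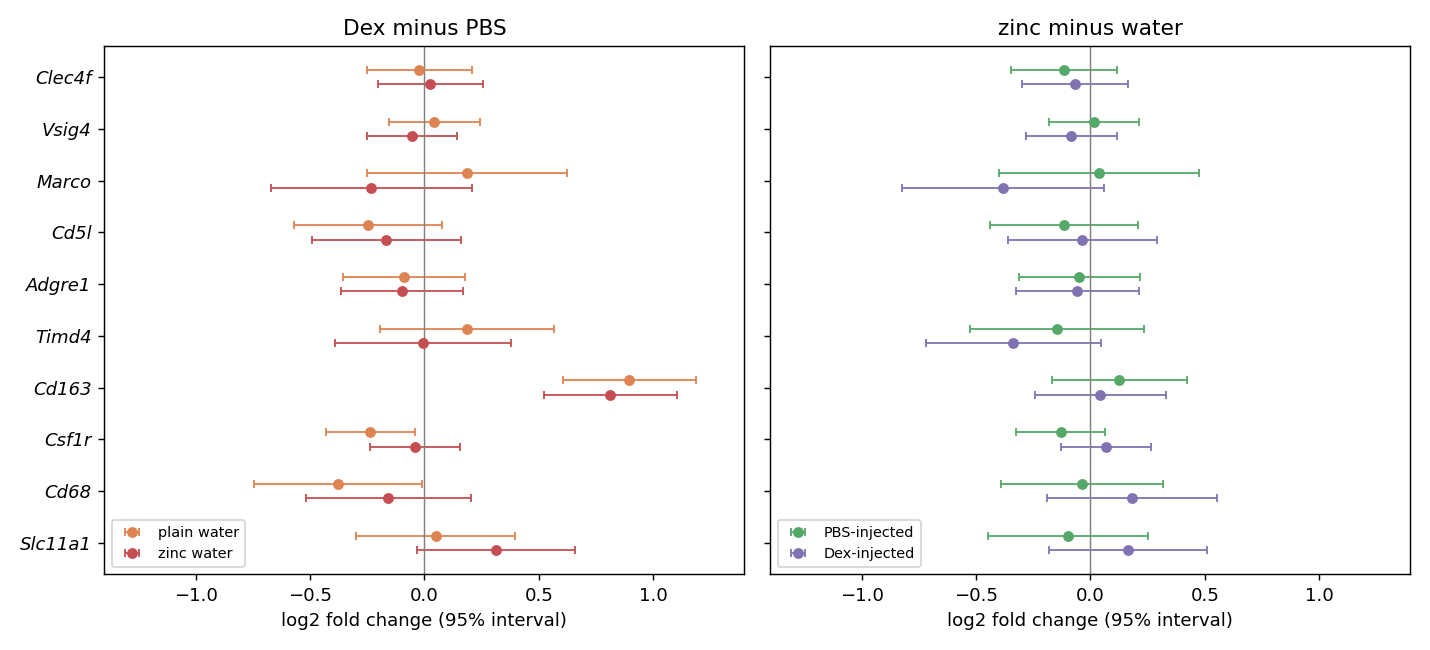
Log2 fold changes (horizontal axes) of the 10 markers with 95% intervals from the DESeq2 fit. The left panel shows Dex minus PBS under each water and the right panel zinc minus water under each injection. Cd163 is the marker whose interval lies far above 0 with Dex, at 0.90 and 0.81, and every interval for zinc crosses 0.

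None of the 10 markers passed the test for zinc. In PBS-injected mice 0 of 10 were called by DESeq2 and 0 by edgeR, and 0 had an unadjusted p under 0.05 by either, beside 0.341% of all genes called. The folds of the 9 others lay between 0.903 and 1.03, with intervals from 0.693 to 1.39, and Cd163 was 1.09-fold (0.890 to 1.34). In Dex-injected mice DESeq2 and edgeR again called 0 of 10, with 0 at an unadjusted p under 0.05 by either, beside 1.35% of all genes. Marco was 0.768-fold (0.565 to 1.04), with 146, 154 and 155 normalized counts in zinc-Dex against 269, 167 and 156 in water-Dex mice, and Timd4 was 0.792-fold (0.607 to 1.03).

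Zinc-Dex mice compared with water-PBS mice, which serve as controls in other comparisons above as well, had Cd163 1.92-fold higher (log2 0.94, SE 0.15, DESeq2 adjusted p = 6.05e-09), beside 13.2% of all genes. The other 9 were between 0.823- and 1.16-fold and were not called. For the interaction of zinc and Dex, DESeq2 and edgeR called 0 of the 10, with 0 at an unadjusted p under 0.05 by either, beside 0.0229% of all genes. For Cd163 the Dex effect in zinc mice was 0.944 times that in water mice, with an interval of 0.710 to 1.26.

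The 10 markers also varied together between mice of one group. Water-PBS replicate 3 was the lowest of its group for 10 of 10 markers, beside 37.6% of the 9574 genes averaging 50 normalized counts or more. It was the lowest for 31 of 35 other Kupffer cell and macrophage genes and for 5 of 12 genes of the sinusoidal endothelium. Water-Dex replicate 1 was the highest of its group for 9 of 10 markers, beside 31.8% of all these genes, for 29 of 35 other macrophage genes and for 10 of 12 endothelial genes. Summed over the 10 markers, normalized counts were 6657 ± 1145 (SD, n = 3) in water-PBS, 6305 ± 203 in zinc-PBS, 6569 ± 715 in water-Dex mice, with 6417 ± 350 in the zinc-Dex group, so both water groups spread more than both zinc groups.

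After subtracting group means, the correlation of each marker with the mean of the others over the 12 libraries was 0.97 for Clec4f, 0.96 for Cd5l, 0.89 for Cd163, 0.87 for Adgre1, 0.84 for Timd4, 0.81 for Vsig4, 0.75 for Marco and Csf1r, 0.60 for Cd68 and 0.58 for Slc11a1. Cd163 thus followed the other markers over these pooled deviations while differing from them with Dex. In each zinc group, replicate 1 had the lowest mean of the other 9 markers but not the lowest Cd163. These values are a description, since the points share their libraries and scaling. The genes of the whole table most like the mean marker profile in this sense were Wbp1 (0.95), Cap1 (0.95), C1qb (0.95), Sdc3 (0.94), Ms4a6b (0.93), Gbp2b (0.92), Dock2 (0.92) and Sh3bgrl2 (0.92). With group means kept, they were Dock2 (0.92), Bcl7c (0.90), Map3k3 (0.90), Man1b1 (0.87), Wbp1 (0.84), Pfn1 (0.83), Slc22a7 (0.83) and Kctd3 (0.82).

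Among 35 other genes of Kupffer cells and macrophages, 3 rose and 3 fell with Dex in water mice, and 3 rose and 2 fell in zinc mice, shares no higher than the 11.7% and 9.91% of all genes tested that rose and fell in water mice and the 11% and 9.08% in zinc mice. The list's median log2 change was -0.10 and -0.09, beside -0.01 and -0.01 over all genes tested. Without water-PBS replicate 3, the lowest of its group for 31 of these 35 genes, the number that fell in water mice was 8. The share of all genes that fell in that fit is not given here, so the 8 cannot be set against it. Under library totals 14 fell in water and 13 in zinc mice, where 23.1% and 25.1% of all genes tested fell. Hpgd, an enzyme that inactivates prostaglandins, had 2218, 2188 and 2479 normalized counts in water-PBS and 4261, 3912 and 4212 in water-Dex mice, 1.80-fold higher (DESeq2 adjusted p = 3.06e-22). In zinc mice it rose 1.77-fold (DESeq2 adjusted p = 3.38e-21), and the groups did not overlap under either water.

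Clec7a, the receptor for fungal beta-glucan, fell in both, with 117, 106 and 85.7 normalized counts in water-PBS and 48.7, 26.6 and 35.6 in water-Dex mice, a log2 change of -1.47 (DESeq2 adjusted p = 6.19e-09), and a log2 change of -1.21 in zinc mice (DESeq2 adjusted p = 1.43e-06). Cd14, a co-receptor for bacterial lipopolysaccharide, rose by log2 1.04 and 0.83 (DESeq2 adjusted p = 0.00502 and 0.0327), but lost its call in water mice without water-Dex replicate 3, and in zinc mice under library totals or without zinc-PBS replicate 2 or 3 or zinc-Dex replicate 1 or 3. Clec1b, the lectin CLEC-2, rose by log2 0.65 and 0.52 (DESeq2 adjusted p = 0.00118 and 0.0125). Its annotated exons overlap those of Clec9a, and its call in zinc mice was lost under library totals or without zinc-PBS replicate 2 or 3 or zinc-Dex replicate 3. Named after their values were seen, Fcgr1 and Itgal fell in water mice and Ptprc in zinc mice, each called under that water alone, which is no test of a difference between waters. Fcgr1 lost its call without water-PBS replicate 1 or 2 or water-Dex replicate 2, Itgal without these or water-Dex replicate 3, and Ptprc without any zinc library but zinc-Dex replicate 2.

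The other abundant genes of this list did not pass the test. With Dex, Slc40a1, the iron exporter ferroportin, was 0.972-fold in water and 1.04-fold in zinc mice, and Lyz2, lysozyme, 0.970- and 0.828-fold. Mrc1, the mannose receptor, was 1.11-fold in both, and Mpeg1, a pore-forming protein of phagocytes, 0.812- and 0.869-fold.

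Of the 11 growth factors and transcription factors of macrophages reported here, 4 fell with Dex under both waters, beside the 9.91% and 9.08% of all genes tested that fell. The median log2 change of these 11 was -0.50 in water and -0.39 in zinc mice, beside -0.01 and -0.01 over all genes tested. Id3, a regulator of Kupffer cell development, fell from 567, 792 and 1273 to 94.4, 147 and 135 normalized counts in water mice, a log2 change of -2.81 (DESeq2 adjusted p = 4.71e-25), and by 2.72 on the log2 scale in zinc mice. Zeb2, a factor that maintains Kupffer cell identity, changed by log2 -1.27 and -1.25, and its level is uncertain because a transcript, Zeb2os, lies on the opposite strand. Csf1, a ligand of the Csf1r receptor, changed by log2 -1.29 and -1.44. Spic, a factor of iron-recycling macrophages, changed by log2 -1.30 and -2.40 at a mean of 20.01 normalized counts, and its call in water mice was lost without water-PBS replicate 2 or 3 or water-Dex replicate 1 or 2. The largest DESeq2 adjusted p among these changes of Id3, Zeb2, Csf1 and Spic was 0.0271, that of Spic in water mice. Nr1h3, the nuclear receptor LXR alpha, was 1.12- and 1.02-fold, Smad4, a mediator of TGF-beta signals, 1.05- and 1.03-fold, and Rbpj, the transcription factor of Notch signals, 0.920- and 1.001-fold, with no call. None of these factors is expressed in Kupffer cells alone, and the cell type behind each change was not tested.

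**Figure D4:**
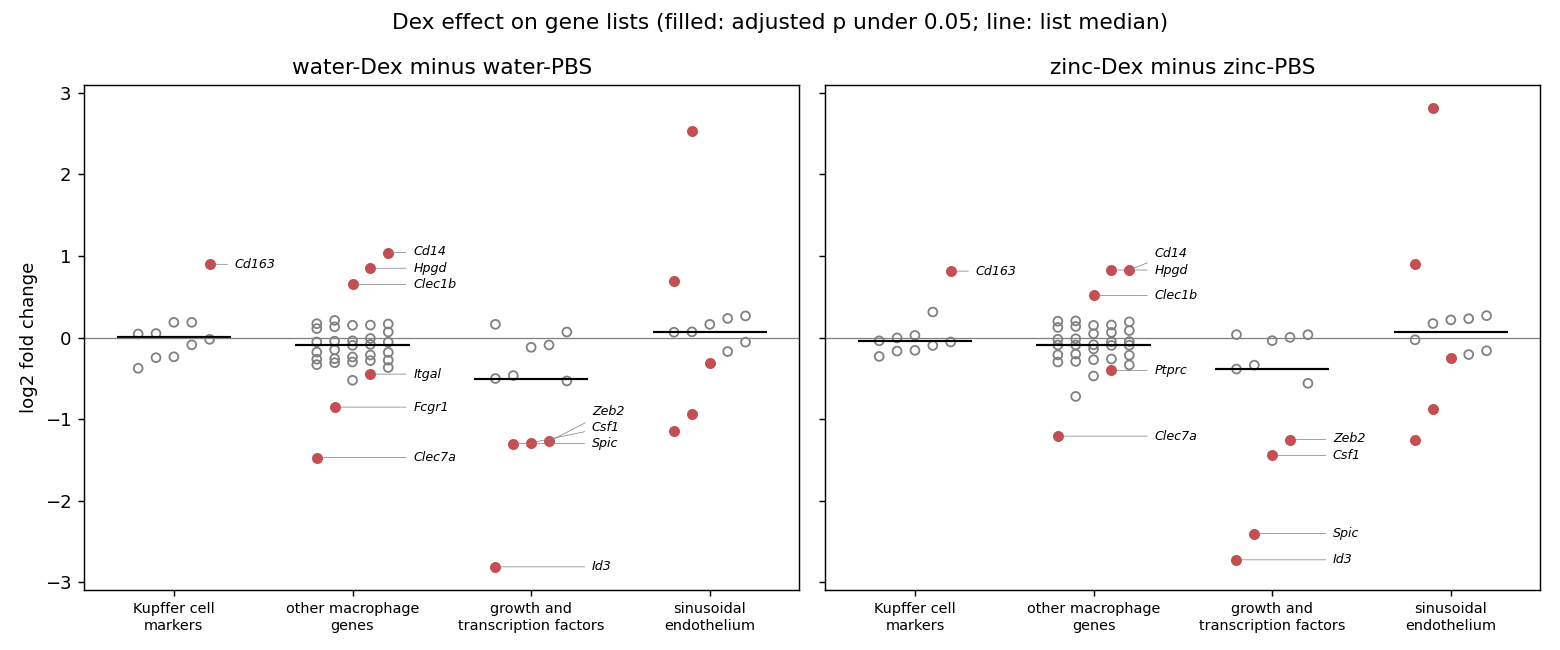
Log2 fold change with Dex (vertical axis) of the 10 Kupffer cell markers, 35 other macrophage genes, 11 growth and transcription factors of macrophages and 12 genes of the sinusoidal endothelium, in water mice (left) and zinc mice (right). Filled points passed DESeq2 at an adjusted p under 0.05 and are named in the first 3 lists, and lines are list medians. Most of the 35 other macrophage genes lie near 0. Among the 10 markers Cd163 is at 0.90 and 0.81, and among the 11 growth and transcription factors Id3 is at -2.81 and -2.72.

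Some markers of other cell types were also called with Dex. Of all genes tested, 11.7% rose and 9.91% fell in water mice, and 11% rose and 9.08% fell in zinc mice. These shares stand beside the list counts here and in the next paragraph. Of 10 monocyte and recruited macrophage genes, 6 were tested (had an adjusted p) in water and 7 in zinc mice. In water mice 1 rose and 1 fell, and in zinc mice 0 rose and 1 fell. The normalized counts of all 10 summed to 219 to 239 with Dex against 170 to 184 without in water mice. In zinc mice the sums were 188 to 234 against 179 to 209. Most of this sum was Plac8, which rose in water mice (log2 0.66, DESeq2 adjusted p = 8.04e-05), and the other 9 genes summed to 29.8 to 49.7 with Dex against 51.6 to 69.3 without in water mice and to 32.2 to 52.9 against 45.3 to 76.9 in zinc mice. The defining monocyte marker Ly6c2 was at 7 normalized counts or fewer in every library, and Ccr2 fell. Of 11 neutrophil genes, 6 were tested in water and 7 in zinc mice, and 0 were called in either comparison, with Ly6g at 1.09 or fewer. The 14 lymphocyte genes summed to 56.4 to 66.3 with Dex against 79.1 to 103 without in water mice (12 tested, 0 rose, 2 fell). In zinc mice they summed to 57.8 to 83.6 against 96.0 to 114 (13 tested, 0 called).

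Of 12 endothelial genes, 2 rose and 3 fell under each water, with sums of 9620 to 10652 against 8782 to 9647 in water mice and 10005 to 10271 against 8646 to 9145 in zinc mice. The higher sums came from Lyve1 and Ehd3, which rose under both waters, and the other 10 genes summed to 6687 to 7478 with Dex against 7271 to 8047 without in water mice and to 6749 to 7269 against 7430 to 7886 in zinc mice. Of 8 hepatocyte genes, 4 rose in water and 7 in zinc mice and 0 fell, beside the 11.7% and 11% of all genes tested that rose. Of 9 dendritic cell and MHC class II genes, 0 of 8 tested were called in water mice, and 1 rose and 1 fell in zinc mice. Of 9 stellate cell genes 2 rose and 1 fell in water mice and 3 rose in zinc mice. Of 5 cholangiocyte genes 0 were called, and of 5 red blood cell genes 1 rose in water and 3 in zinc mice. The part of these cell types in the values of Cd163 and the other macrophage genes was not tested.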

How the data were processed

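Stranded TruSeq libraries of whole liver RNA were sequenced as single-end reads on a NextSeq. The authors mapped reads to mouse mm10 with HISAT2 2.0.4 and counted them per Ensembl gene with featureCounts, without multimapping reads, and the deposited table holds raw counts. The annotation release and strand setting are not given in the sources used here. Of 54838 identifiers, 54809 were matched to GENCODE M21 for symbols and exon lengths. Total counts were 9091152 to 12303527 per library. Replicates differed by 6.20 to 20.7 times counting noise (chi-square per degree of freedom), so none was a copy.

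DESeq2 1.42.0 (R 4.3.3) was fitted to all 12 libraries with 1 coefficient per group and Wald tests, with a call meaning an adjusted p (Benjamini-Hochberg, over all genes tested) under 0.05. The code of the fit was run on simulated counts with known changes and the same spread for every gene. That setting is simpler than these data, so it checks the code only. Alternatives are given in the closing section. The 10 markers and all gene lists were chosen with earlier results of these data known. Named beyond the markers were the 5 most abundant genes of both macrophage lists, those called in both Dex comparisons, and the 8 genes most like the mean marker profile (log2 of normalized count plus 0.5, standardized, mean count of at least 50). The result of 1 gene of the growth and transcription factor list is not reported here, and that list's counts and median leave it out. Promoter sequences were from RefSeq. The labels only number the replicates, which were taken to be separate mice from the study's stated group size of 3.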

Additional observations from a re-analysis of the deposited data

How the results depend on the processing

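Cd163 was called with Dex in all alternatives run in water mice (log2 0.70 to 0.99), zinc mice (0.59 to 0.89) and the combined comparison, and no marker was called for zinc or the interaction in any. The alternatives were edgeR 4.0.16 (quasi-likelihood), TMM factors, at least 10 counts in 3 libraries, a replicate block, no independent filtering, only the 6 libraries compared, the log2 threshold of 0.8, each library left out and, added after seeing the data, library totals as size factors. Under library totals the number of markers called became 4 with Dex in water mice, 5 in zinc mice and 6 in the combined comparison, in place of 1 each, beside 30.1%, 31.5% and 35.8% of all genes called under that scaling. Leaving out each library gave 1 to 3 in water mice, 1 to 1 in zinc mice and 1 to 2 in the combined comparison. The higher counts came without water-PBS replicate 3, where Cd5l was called in both (log2 -0.45 and -0.49) and Csf1r in water mice. That library was the lowest of its group for 10 of 10 markers. The shares of all genes called with a library left out are not given here, so these counts cannot be set against them. With the replicate block 1 marker was called in each of these 3 comparisons, and over all genes the calls with Dex in water mice went from 3067 to 2421. The replicate numbers gave no sign of paired mice. Deviations of same-numbered libraries correlated above 0.1 in 1 of 18 pairs (-0.20 to 0.19). A library correlated best with its own number in 6 of 36 cases. With 3 libraries a group this check cannot exclude pairing. Of all genes, zinc calls in PBS mice numbered 42 with DESeq2 and 11 with edgeR, in Dex mice 173 and 47, and interaction calls 6 and 3. With 3 mice a group, the 95% intervals of the Dex effects on the 9 markers other than Cd163 reached as far as 0.597- and 1.58-fold.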
